A study of Homo sapiens with 12 samples.

Results

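The genes of 10 integrin subunits of epithelial cells, ITGA2, ITGA3, ITGA5, ITGA6, ITGAV, ITGB1, ITGB4, ITGB5, ITGB6 and ITGB8, were taken by their platform gene symbols, and 9 of them could be measured among 18132 genes in all. ITGB6 was left without a value, since both probe sets that carry its name are also annotated to LINC02478. The other 9 genes had 35 probe sets of their own, and each gene's main value came from the set whose mean over all 12 arrays was highest. The arrays were Affymetrix PrimeView chips of RNA from A549 monolayers grown on uncoated plastic. A549 is an epithelial line from a human lung adenocarcinoma. The 12 arrays formed 4 groups of 3. The first had 2 h of heat shock followed by wounding for 4 h (heat shocked and wounded). The second had the 2 h heat shock only (heat shocked). The third was wounded for 4 h only (wounded), and the last was untreated (control). All 4 groups are the same cell line with no engineered change, and the collection time of the cells given heat shock only is not in the labels. Between those cells and the heat shocked and wounded cells, wounding and time since heat shock therefore cannot be told apart. Nothing in the labels tells whether replicate arrays had cultures of their own, so p-values measure a spread between arrays that may be technical.

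Integrins are receptors that cross the cell membrane and tie the matrix outside the cell to the actin or keratin skeleton inside it. Each is a pair of 1 alpha and 1 beta subunit, and the pair sets the ligand: alpha2 with beta1 binds collagen, alpha3 with beta1 and alpha6 with beta1 or beta4 bind laminins, alpha5 with beta1 binds fibronectin, and alphaV with several beta subunits binds ligands with an arginine-glycine-aspartate motif. In lung epithelium, alphaV paired with beta6 or beta8 is also known for releasing active TGF-beta from its latent complex. Cells that close a scratch wound must crawl over matrix, so integrin subunits are among the genes commonly read in such an assay.

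The sequence before the gene start is shown for ITGA2 and ITGA5, the alpha subunits with the largest changes after wounding with and without heat shock. The windows are the 250 bases upstream of the gene start in RefSeq on build GRCh38.p14, written in the direction of the gene. The ITGA2 window is chr5:52989102-52989351 on the plus strand and the ITGA5 window is chr12:54419267-54419516 on the minus strand. Capitals mark matches, on either strand, to the motifs that were searched.
ITGA2: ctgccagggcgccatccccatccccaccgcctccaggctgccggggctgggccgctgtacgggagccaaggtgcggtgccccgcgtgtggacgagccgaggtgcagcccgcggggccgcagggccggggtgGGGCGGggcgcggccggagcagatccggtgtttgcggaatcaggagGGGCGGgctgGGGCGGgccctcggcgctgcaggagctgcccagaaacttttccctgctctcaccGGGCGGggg
ITGA5: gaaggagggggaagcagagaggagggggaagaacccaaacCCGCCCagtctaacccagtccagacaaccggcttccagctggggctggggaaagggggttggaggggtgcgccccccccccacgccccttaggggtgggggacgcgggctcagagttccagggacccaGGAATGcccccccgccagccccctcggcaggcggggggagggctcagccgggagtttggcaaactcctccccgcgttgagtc
The capitals in the ITGA2 window are 4 GC boxes (GGGCGG), the motif of the factor SP1, and 76.4% of its bases are G or C. The ITGA5 window has 1 GC box on the opposite strand and 1 match to GGAATG, the motif of the TEAD factors. The GC box was present in 41.7% of 24883 promoters of the same length and the TEAD motif in 11.99%. No match to GAANNTTC or TTCNNGAA, pairs of heat shock element units that read head to head and tail to tail, or to the AP-1 motif TGANTCA was found in either window. Those 3 motifs occurred in 5.91%, 6.74% and 6.67% of promoters. The ETS core CCGGAA, found in 14.7% of promoters, was also not found in either. The table had a window for 8 of the 10 genes and none for ITGA3 and ITGB4. The ITGB8 window lies inside the annotated gene, so the bases before the ITGB8 start were not searched. None of the other 7 windows held a match to the heat shock or AP-1 motifs.

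Values below are log2 levels as deposited, so a difference of 1 is a doubling of the signal, written here as a fold of 2. Levels are given with the SD of 3 arrays and differences with the SE of the model. A gene was called where limma's adjusted p, by Benjamini-Hochberg over 18132 genes, was under 0.05. Marker genes of both treatments moved. The heat shock gene HSPA6 was higher by 5.79 ± 0.26 in heat shocked cells than in control cells (adjusted p = 6.03e-08), and the early response gene EGR1 was higher by 2.99 ± 0.27 in wounded cells than in control cells (adjusted p = 8.19e-05). EGR1 was also higher by 1.03 ± 0.27 in heat shocked than in control cells (adjusted p = 0.0261). FOS, another early response gene, was higher by 2.04 ± 0.15 in wounded cells and differed by 0.08 ± 0.15 in heat shocked cells. By their medians over the 12 arrays, all 8 epithelial marker genes, among them KRT8 and KRT18, lay above the array median. Of the 8 alveolar type II markers only 3 did, and the surfactant gene SFTPA1 had a median level of 2.34. One array, heat shocked and wounded replicate 2, stood apart, with an interquartile range of 3.98 where the other 11 arrays had 4.13 to 4.24, so each result that involves the group was also computed without it.

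Across the family, 4 of the 9 measured subunits were higher in heat shocked and wounded cells than in control cells: ITGA2, ITGA5, ITGA6 and ITGAV. After heat shock alone 2 rose, ITGA2 and ITGB8, and after wounding alone 2 rose, ITGA2 and ITGA5. No measured subunit fell against control in these 3 comparisons, and 0 were lower at an unadjusted p under 0.05. Of all genes, 8.66% were called higher and 14.4% lower in heat shocked and wounded against control cells, 4.93% higher and 7.92% lower in heat shocked against control cells, and 2.27% higher and 1.31% lower in wounded against control cells. The median difference of the 9 subunits was 0.27, 0.14 and 0.20 in those 3 comparisons in that order, beside −0.01, −0.03 and −0.03 over all genes. The shares over all genes include dim genes, whereas the measured subunits other than ITGB8 had mean levels of 6.44 to 13.30. With genes left out whose group means all lay under 5, limma called 1562 genes higher and 2959 lower after both treatments. It called 1078 and 1932 after heat shock, and 498 and 327 after wounding. Those counts come from fewer genes, so the shares among brighter genes were larger. The 3 comparisons share the control arrays, so they are not independent of each other.

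**Figure D1:**
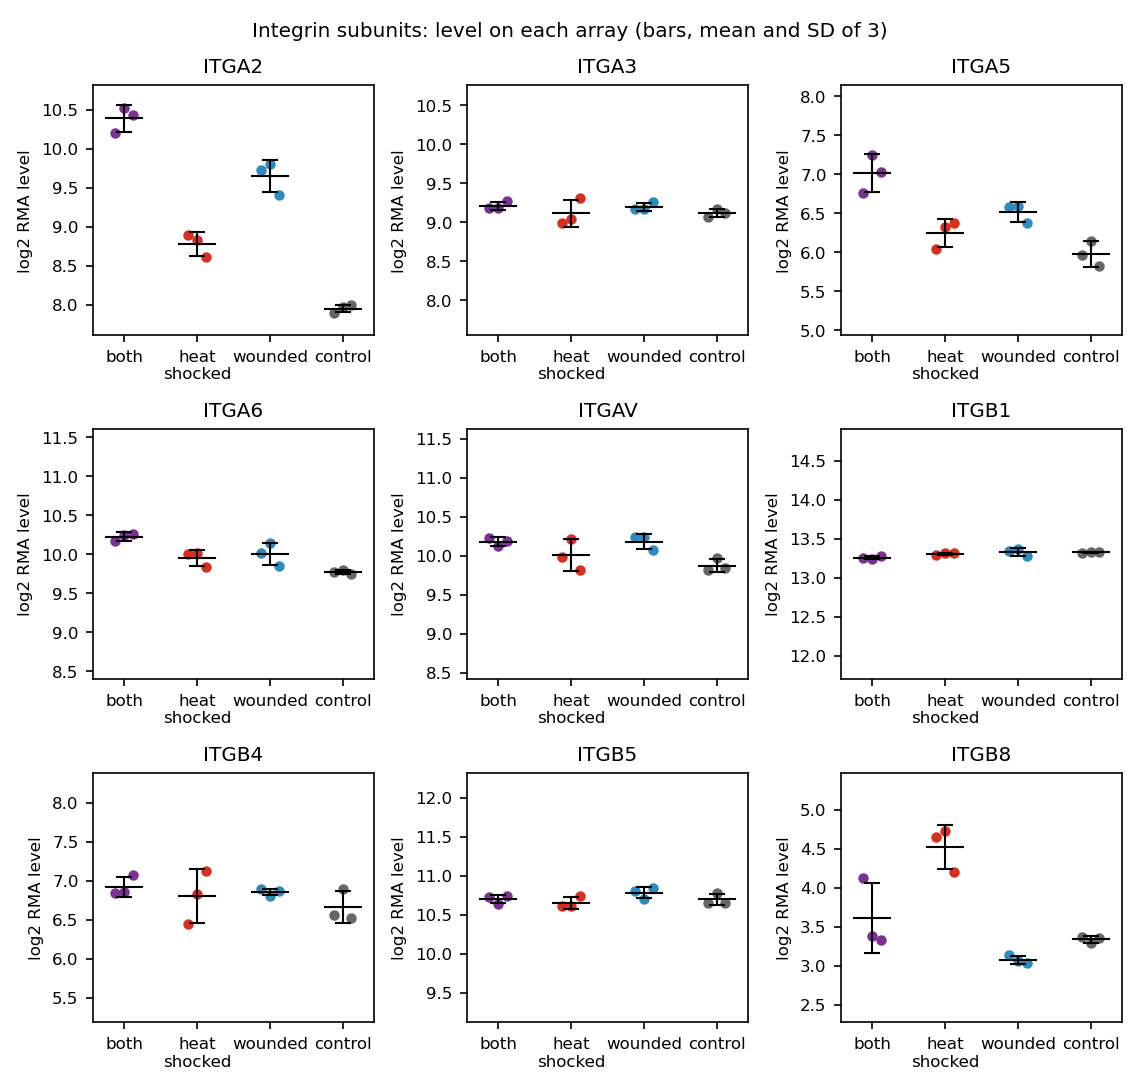
Log2 RMA level of 9 integrin subunits on each of the 12 arrays. Each panel is 1 gene, each point is 1 array, and the bars are the mean and SD of 3 arrays; the vertical axes differ in position but span the same range. The groups run from heat shocked and wounded ("both") to control. ITGA2 has 4 groups that do not overlap, with means of 10.39, 8.78, 9.65 and 7.95, while the panels of ITGA3, ITGB1 and ITGB5 are nearly flat.

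The largest change was that of the collagen receptor subunit ITGA2 (alpha2, at chr5:52989352-53094779). Its level was 10.20, 10.53 and 10.43 on the heat shocked and wounded arrays and 8.90, 8.83 and 8.61 on the heat shocked arrays. It was 9.73, 9.80 and 9.41 on the wounded arrays and 7.89, 7.96 and 7.99 on the control arrays. No 2 of the 4 groups overlapped, and the order of the means was control, heat shocked, wounded, then heat shocked and wounded. ITGA2 was 5.42-fold higher in heat shocked and wounded cells than in control cells (difference 2.44 ± 0.11, limma adjusted p = 5.41e-08). It was 1.78-fold higher in heat shocked than in control cells (0.83 ± 0.11, adjusted p = 0.000559). It was 3.24-fold higher in wounded than in control cells (1.70 ± 0.11, adjusted p = 1.56e-05). ITGA2 was also higher after both treatments than after either treatment alone. Heat shocked and wounded cells had 1.67-fold more than wounded cells (0.74 ± 0.11, adjusted p = 0.00115) and 3.05-fold more than heat shocked cells (1.61 ± 0.11, adjusted p = 2.88e-05). The departure of the double treatment from the sum of the single differences was −0.09 ± 0.16, with a 95% interval of −0.44 to 0.26 (adjusted p = 0.939). Neither a larger nor a smaller joint change was detected. That sum holds the heat shocked group, whose collection time is not in the labels. A difference in time since heat shock may therefore be part of this and every later departure from additivity. Without the array that stood apart, the difference of heat shocked and wounded from control cells was 2.37. The second ITGA2 probe set gave 2.27 for that comparison, 0.72 for heat shocked against control and 1.74 for wounded against control, and was called in all 3.

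Among the laminin receptor subunits, ITGA6 rose and ITGA3 and ITGB4 did not pass the test. ITGA6 (alpha6, which pairs with beta4 in hemidesmosomes) was at 10.16, 10.25 and 10.27 in heat shocked and wounded cells, 10.01, 10.02 and 9.84 in heat shocked cells, 10.01, 10.14 and 9.85 in wounded cells, and 9.77, 9.80 and 9.75 in control cells. All 3 treated groups lay above the control arrays, and the double treatment lay above both single ones. Only the double treatment was called against control, at 1.37-fold (0.45 ± 0.08, adjusted p = 0.0013), and the difference was 0.44 without the array that stood apart. The single treatments differed from control by 0.18 ± 0.08 after heat shock (adjusted p = 0.182) and 0.23 ± 0.08 after wounding (adjusted p = 0.203). ITGA3 (alpha3) averaged 9.21 ± 0.05 in heat shocked and wounded cells, 9.12 ± 0.18 in heat shocked cells, 9.20 ± 0.05 in wounded cells and 9.12 ± 0.05 in control cells. Its 95% intervals against control reached at most 0.27 for the double treatment, 0.18 for heat shock and 0.26 for wounding, so larger increases than these were outside them. ITGB4 (beta4) averaged 6.92 ± 0.13, 6.80 ± 0.34, 6.86 ± 0.04 and 6.66 ± 0.21 in the same 4 groups. Its difference in heat shocked and wounded against control cells was 0.26, with an interval of −0.06 to 0.59, and that was the highest of its 8 probe sets, which ranged from −0.05 to 0.26.

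The fibronectin receptor subunit ITGA5 (alpha5, at chr12:54395261-54419266) rose after wounding and rose further when heat shock came first. Its level was 6.77, 7.26 and 7.03 on the heat shocked and wounded arrays and 6.04, 6.33 and 6.38 on the heat shocked arrays. It was 6.58, 6.60 and 6.37 on the wounded arrays and 5.96, 6.15 and 5.83 on the control arrays. The heat shocked arrays overlapped the control arrays, whereas the wounded and the doubly treated arrays did not. ITGA5 was 2.05-fold higher in heat shocked and wounded than in control cells (1.04 ± 0.13, adjusted p = 0.000116) and 1.70-fold higher than in heat shocked cells (0.77 ± 0.13, adjusted p = 0.00563). In wounded against control cells the difference was 0.54 ± 0.13 (1.45-fold, adjusted p = 0.0436), and it lost its call without any 1 of 8 arrays: each control array, wounded replicate 1 or 2, heat shocked replicate 2 or 3, and heat shocked and wounded replicate 3 (adjusted p from 0.0507 to 0.176). That call was also lost with a block for the code stem of the descriptions (adjusted p = 0.0549), and the mean of the 4 ITGA5 probe sets gave 0.28 (adjusted p = 0.141). Among the 4 sets were low ones with mean levels of 3.91 and 3.09. In heat shocked and wounded against wounded cells it was 0.50 ± 0.13 (adjusted p = 0.0251), and it lost its call without wounded replicate 1 or 3 or heat shocked and wounded replicate 2 or 3 (0.38 and adjusted p = 0.0917 without the array that stood apart). After heat shock alone the difference from control was 0.27 ± 0.13 (adjusted p = 0.228). The departure from additivity, which may also hold a difference in time since heat shock, was 0.23 ± 0.19 (adjusted p = 0.843).

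ITGAV (alphaV), the alpha subunit that pairs with beta5, beta6 and beta8, was called only after the double treatment by its main probe set. It was at 10.23, 10.12 and 10.19 in heat shocked and wounded cells, 9.99, 10.22 and 9.82 in heat shocked cells, 10.23, 10.24 and 10.07 in wounded cells and 9.81, 9.96 and 9.84 in control cells. The wounded and the doubly treated arrays overlapped, and both lay above the control arrays. The difference from control was 0.31 ± 0.10 in both, a 1.24-fold change, with adjusted p = 0.0346 for the double treatment and 0.126 for wounding alone. Leaving out control replicate 1 or 3, or heat shocked and wounded replicate 1 or 3, ended the call, with adjusted p between 0.0717 and 0.115. Heat shocked and wounded against wounded cells gave a difference of −0.00, with an interval of −0.21 to 0.21. In the fit over all probe sets, 1 of the 5 ITGAV sets was called after heat shock and 2 after wounding. The main set was not among them.

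Of the beta subunits, which set which alpha subunits can reach the surface, ITGB1 and ITGB5 did not pass the test and ITGB8 did after heat shock. ITGB1 (beta1, the shared partner of alpha2, alpha3, alpha5 and alpha6) averaged 13.25 ± 0.02, 13.30 ± 0.02, 13.33 ± 0.05 and 13.32 ± 0.01 in heat shocked and wounded, heat shocked, wounded and control cells. Its 95% interval in heat shocked and wounded against control cells was −0.19 to 0.05, so a rise of the size seen for ITGA2 or ITGA5 lay outside it. That probe set lay near the top of the scale, where the highest value in the table was 14.1, and array signals can flatten there. The other probe sets of ITGB1 included 3 at lower levels, with means of 11.96, 11.00 and 10.98, and none of the 5 was called in the 3 comparisons with control. The remaining set was very low, with a mean of 2.38. ITGB5 (beta5, a vitronectin receptor subunit with alphaV) averaged 10.70 ± 0.05, 10.65 ± 0.08, 10.79 ± 0.07 and 10.70 ± 0.07 in the same order, and its interval in heat shocked and wounded against control cells was −0.15 to 0.15.

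ITGB8 (beta8) was the only measured subunit that was higher in heat shocked cells and lower in heat shocked and wounded cells than in heat shocked cells. Its level was 4.12, 3.37 and 3.33 on the heat shocked and wounded arrays and 4.65, 4.72 and 4.20 on the heat shocked arrays. It was 3.13, 3.06 and 3.03 on the wounded arrays and 3.37, 3.29 and 3.36 on the control arrays. The 3 heat shocked arrays lay above all other arrays, and replicate 1 of the double treatment lay well above the other two of its group. ITGB8 was 2.27-fold higher in heat shocked than in control cells (1.19 ± 0.18, adjusted p = 0.00127). It was lower in heat shocked and wounded than in heat shocked cells by a difference of −0.91 ± 0.18 (adjusted p = 0.0131). That call was lost without heat shocked replicate 1 or 2 (adjusted p = 0.0574 and 0.0630) or the array that stood apart (−0.80, adjusted p = 0.0575). Over the 21 alternatives for this comparison, limma's adjusted p reached 0.116. Against control, the wounded cells differed by −0.26 ± 0.18 (adjusted p = 0.630) and the doubly treated cells by 0.27 ± 0.18 (adjusted p = 0.340). The departure from additivity was −0.65 ± 0.26, with limma's adjusted p = 0.633 and an unadjusted p of 0.0272. Wounding and time since heat shock cannot be told apart where doubly treated and heat shocked cells are compared. All ITGB8 levels were low. They lay under 4.85, the upper quartile of 17 leukocyte and endothelial marker genes in these epithelial cells, so the folds are approximate. The other 3 ITGB8 probe sets had means of 2.24 to 3.00, and none of them was called. The mean of all 4 sets gave 0.46 in heat shocked against control cells (adjusted p = 0.00310), and in heat shocked and wounded against heat shocked cells it gave −0.27, which was not called (adjusted p = 0.0990).

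**Figure D2:**
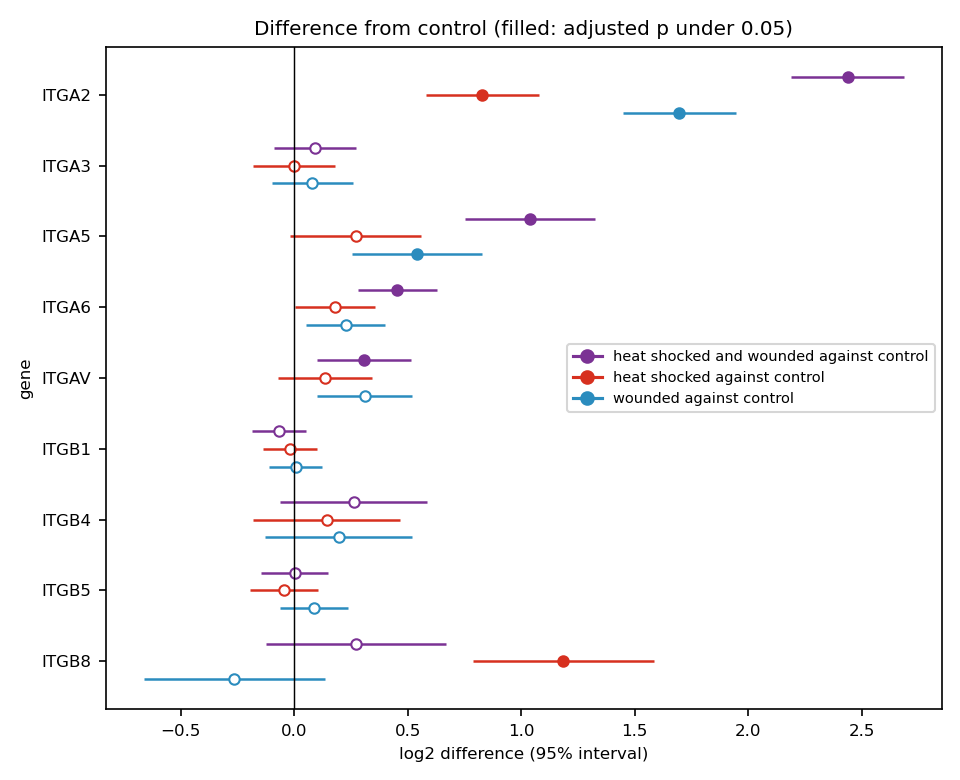
Log2 difference from control of 9 integrin subunits after both treatments, heat shock alone and wounding alone. Points are limma estimates, bars are 95% intervals, and filled points have an adjusted p under 0.05. ITGA2 is filled in all 3 comparisons (2.44, 0.83 and 1.70), ITGB8 only after heat shock (1.19).

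Direct comparisons of the treated groups gave 2 or 3 calls each. Those with the heat shocked group may also hold a difference in time since heat shock, since its collection time is not in the labels. In heat shocked and wounded against wounded cells 2 subunits were higher, ITGA2 and ITGA5, and none lower, where 6.31% of all genes were called higher and 8.6% lower. In heat shocked and wounded against heat shocked cells ITGA2 and ITGA5 were higher and ITGB8 lower, where 2.71% of all genes were higher and 1.58% lower. In heat shocked against wounded cells ITGB8 was higher (1.45 ± 0.18, 2.73-fold, adjusted p = 0.000352) and ITGA2 lower (−0.87 ± 0.11, adjusted p = 0.000456), where 4.51% of all genes were higher and 6.01% lower. The ITGB8 fold is approximate at these low levels, and the mean of its 4 probe sets gave 0.53 (adjusted p = 0.00143). ITGA6 differed by 0.23 ± 0.08 in heat shocked and wounded against wounded cells (adjusted p = 0.0825) and by 0.27 ± 0.08 against heat shocked cells (adjusted p = 0.0849). For the departure from additivity, which also uses the heat shocked group, limma called 0 of the 9 subunits. In that test 1 of 9, ITGB8, had an unadjusted p under 0.05. Over all genes 0.00552% were called higher (1 gene) and 0% lower in that test.

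The single-symbol probe sets of a gene read different stretches or isoforms of its transcript, and they did not all give the same call. Of the 35 probe sets, 11 were called higher in heat shocked and wounded against control cells, 4 in heat shocked against control cells and 6 in wounded against control cells, and none was called lower. In the fit over 49292 probe sets the shares called higher were 7.12%, 4.24% and 1.69%, and the shares called lower were 10.8%, 4.58% and 0.572%. Both ITGA2 probe sets were called in all 3 comparisons. ITGAV had 4 of 5 called after the double treatment, with differences from 0.31 to 0.72 over its 5 sets. Of the ITGAV sets, 1 was called after heat shock (0.51) and 2 after wounding (the highest 0.62). The main ITGAV probe set thus gave the smallest difference of the 5 in all 3 comparisons. ITGA5 had 3 of 4 called after the double treatment. In this fit its main probe set missed the threshold after wounding (adjusted p = 0.0561), while another ITGA5 set passed (0.62, adjusted p = 0.00713) and the other 2 gave 0.04 and −0.06. Those 2 sets were low, with mean levels of 3.91 and 3.09, beside 6.44 for the main set and 5.82 for the set that passed. ITGA6 had 2 of 3 called after the double treatment and 1 of 3 after wounding (0.38, adjusted p = 0.0335). None of the 8 ITGB4 probe sets, the 5 ITGB1 sets or the 3 ITGA3 sets was called against control.

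**Figure D3:**
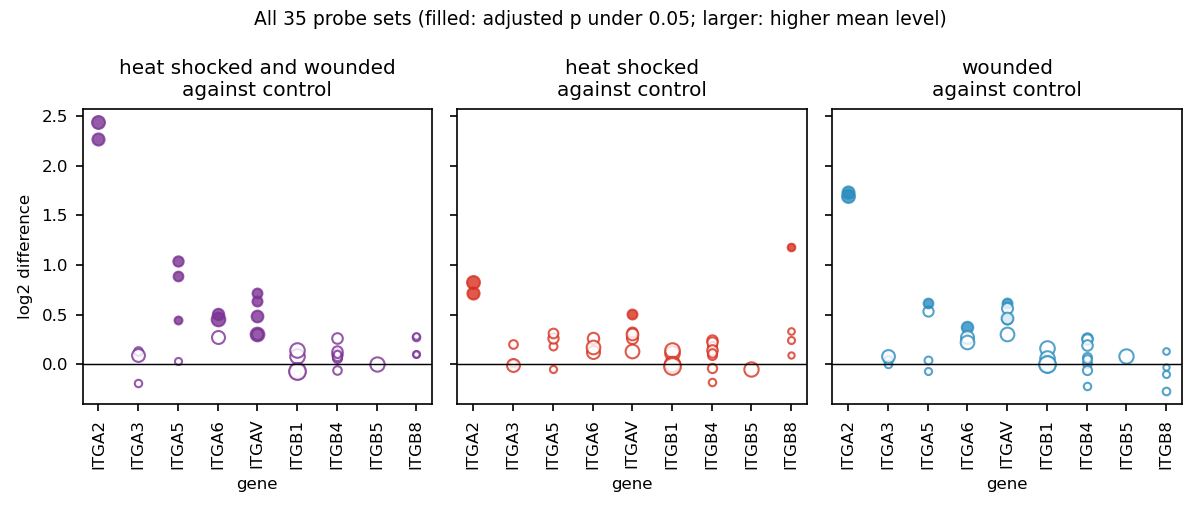
Log2 difference from control for all 35 single-symbol probe sets of the 9 integrin subunits, in 3 panels for both treatments, heat shock alone and wounding alone. Each point is 1 probe set, its size grows with the mean level, and filled points have an adjusted p under 0.05 over 49292 probe sets. The 2 ITGA2 points lie together in every panel and are the highest after both treatments and after wounding. In the heat shock panel, on the same axis, they lie at 0.83 and 0.72. The ITGB8 points in that panel are split between 1 at 1.19 and 3 between 0.10 and 0.33.

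Levels of the called subunits moved together over the 12 arrays to different degrees. Pearson's r with ITGA2 was 0.92 for ITGA5, 0.92 for ITGA6, 0.79 for ITGAV and −0.14 for ITGB8. The arrays share their treatments, so these values describe the 4 group means more than single arrays. Among 10990 genes with a mean level of at least 5, those most like ITGA2 were C3orf52 (r = 0.993), PLEK2 (r = 0.991) and SERPINE2 (r = 0.991). SERPINE2, a secreted inhibitor of serine proteases, was higher by 1.11 ± 0.08 after both treatments, 0.38 ± 0.08 after heat shock and 0.73 ± 0.08 after wounding than in control cells. The genes most like ITGA5 were OTUB2 (r = 0.967), CNNM4 (r = 0.963) and BHLHE40 (r = 0.961). For ITGA6 they were PRKAB2 (r = 0.967), PODXL (r = 0.966) and RHOU (r = 0.962). For ITGAV the closest was FOXN3 (r = 0.925), followed by MORC3 (r = 0.920) and TRIM2 (r = 0.911). For ITGB8 they were EID3 (r = 0.968), MIDEAS (r = 0.965) and PSPH (r = 0.958). EID3 was higher by 0.56 ± 0.11 in heat shocked than in control cells and, like ITGB8, was called in neither of the other comparisons with control.

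The ligands of these receptors were read from lists of laminins and of collagens, fibronectin and other matrix proteins. Of 9 measured laminin genes, the laminin-like NTN4 included, 3 were higher and 0 lower after both treatments, 3 and 0 after heat shock, and 1 and 0 after wounding, each against control. Of all genes, 8.66% were called higher and 14.4% lower after both treatments, 4.93% and 7.92% after heat shock, and 2.27% and 1.31% after wounding. Counts of this and the later lists are to be read beside those shares, which include dim genes, and no list was tested against them. LAMB3, the beta chain of laminin-332, which alpha3beta1 and alpha6beta4 bind, was at 8.18, 8.37 and 8.38 in heat shocked and wounded cells, 7.20, 7.48 and 7.22 in heat shocked cells, 7.69, 7.66 and 7.55 in wounded cells, and 6.76, 6.91 and 6.56 in control cells. Its 4 groups did not overlap and followed the same order as those of ITGA2. The LAMB3 difference from control was 1.57 ± 0.10 after both treatments, 0.56 ± 0.10 after heat shock and 0.89 ± 0.10 after wounding. NTN4 was higher by 1.02 ± 0.14 after heat shock (adjusted p = 0.000603) and 0.63 ± 0.14 after both, while wounding gave −0.24 ± 0.14 (adjusted p = 0.532). LAMB1 was higher after heat shock (0.39 ± 0.07) and LAMC1 after both treatments (0.27 ± 0.06). The LAMC1 probe set of largest variance gave 0.01 (adjusted p = 0.974).

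Of 16 collagen, fibronectin and other ligand genes, 6 were higher and 1 lower after both treatments, 3 and 1 after heat shock, and 6 and 0 after wounding. Shares over all genes in the same order were 8.66% and 14.4%, 4.93% and 7.92%, and 2.27% and 1.31%. COL4A1, a chain of basement membrane collagen, was higher in all 3 comparisons (1.17 ± 0.09, 0.48 ± 0.09 and 0.75 ± 0.09 in that order). With the mean of its probe sets the COL4A1 call after heat shock was lost (0.26, adjusted p = 0.0659). THBS1, a matrix protein that also activates latent TGF-beta, was higher in all 3 as well (0.68 ± 0.11, 0.61 ± 0.11 and 0.45 ± 0.11). The THBS1 probe set of largest variance turned the sign, at −0.44 after both treatments and −0.78 after heat shock, neither of them called. The THBS1 call after wounding was lost under 8 of 22 alternatives. CCN1 and CCN2, matricellular proteins that integrins bind, were called after both treatments (1.08 ± 0.12 and 1.02 ± 0.13) and after wounding (0.72 ± 0.12 and 1.28 ± 0.13). After heat shock alone CCN1 differed by 0.11 ± 0.12 and CCN2 by −0.02 ± 0.13, and neither was called. COL1A1 was higher after both treatments (1.05 ± 0.16) and after heat shock (0.78 ± 0.16). Its control arrays lay at 4.55, 4.65 and 4.56, under 4.85, so these differences are approximate. The doubly treated arrays were spread, at 6.09, 5.38 and 5.45. VTN, vitronectin, was lower after both (−0.59 ± 0.15, adjusted p = 0.0102), and COL3A1 was lower after heat shock (−0.35 ± 0.11, adjusted p = 0.0495) at a level under 4.85, a call lost under 18 of 21 alternatives. The VTN call was lost without control replicate 2 (adjusted p = 0.0505). FN1, fibronectin, the ligand of alpha5beta1, was at 11.26, 11.28 and 11.02 in heat shocked and wounded cells, 11.42, 11.45 and 11.06 in heat shocked cells, 11.49, 11.64 and 11.01 in wounded cells, and 11.32, 11.43 and 11.08 in control cells. The FN1 groups overlapped and it was called in none of the 3. Fibroblast markers, which include 3 of these collagens, were low by their medians over the 12 arrays: 0 of 8 lay above the array median. COL1A1, 1 of the 8, did lie above it on all 3 heat shocked and wounded arrays and on heat shocked replicates 2 and 3. The 8 averaged 3.90 to 4.06 on the heat shocked and wounded arrays and 3.82 to 3.90 on the heat shocked arrays. They averaged 3.72 to 3.85 on the wounded arrays and 3.74 to 3.90 on the control arrays. Their part in the ligand results was not tested.

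Among 9 genes of latent TGF-beta, the cargo of the alphaV integrins, 2 were higher after both treatments, 1 after heat shock and 1 after wounding, and none was lower. Over all genes 8.66%, 4.93% and 2.27% were higher and 14.4%, 7.92% and 1.31% lower in that order. TGFB2 was higher by 0.30 ± 0.07 and LTBP3, a binding protein of the latent complex, by 0.37 ± 0.07 after both treatments. The TGFB2 call was lost with the mean of its probe sets (adjusted p = 0.0581) and with the set of largest variance (adjusted p = 0.493). LTBP2 was higher by 0.53 ± 0.10 after wounding and LRRC32, which anchors latent TGF-beta to the cell, by 0.39 ± 0.11 after heat shock. LRRC32 lay at 3.71 to 4.39 over the arrays, under 4.85, and its call was lost under 7 of 21 alternatives, among them renewed quantile normalization and leaving out any 1 control array. The LTBP2 call was lost without control replicate 1 or 3 or wounded replicate 1 or 3.

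Of 34 measured adaptors and kinases of integrin adhesions, 7 were higher and 4 lower after both treatments, 5 and 1 after heat shock, and 4 and 0 after wounding. Over all genes those shares were 8.66% and 14.4%, 4.93% and 7.92%, and 2.27% and 1.31%. PXN, paxillin, a scaffold of focal adhesions, was at 11.33, 11.54 and 11.45 in heat shocked and wounded cells, 10.92, 10.87 and 10.89 in heat shocked cells, 10.87, 10.95 and 10.64 in wounded cells, and 10.29, 10.26 and 10.35 in control cells. All treated arrays lay above the control arrays, and the double treatment lay above both single ones. PXN was higher than in control cells by 1.14 ± 0.08 after both treatments, 0.59 ± 0.08 after heat shock and 0.52 ± 0.08 after wounding. TNS1, tensin 1, which links integrin tails to actin, was higher by 1.33 ± 0.09, 0.41 ± 0.09 and 0.85 ± 0.09 in that order, whereas TNS3 was lower by −0.61 ± 0.08 after both treatments and −0.43 ± 0.08 after heat shock. With the mean of all probe sets the heat shock difference was 0.14 for TNS1 and −0.19 for TNS3, and neither was called. The TNS3 probe set of largest variance gave −0.40 after both treatments (adjusted p = 0.0958) and −0.13 after heat shock (adjusted p = 0.731). The TNS1 heat shock call was also lost without control replicate 1 or heat shocked replicate 2. With the mean of all probe sets, the PXN difference after wounding was 0.28 and not called (adjusted p = 0.0670). The kindlins, which activate integrins, split: FERMT2 was called in all 3 comparisons (0.83 ± 0.09, 0.45 ± 0.09 and 0.42 ± 0.09), and FERMT1 after both treatments and after wounding (0.85 ± 0.12 and 0.78 ± 0.12) but not after heat shock (−0.13 ± 0.12). The FERMT2 call after wounding was lost without any 1 control array or without wounded replicate 1 or 2. BCAR1, the docking protein p130Cas, was higher after both treatments (0.62 ± 0.07) and after heat shock (0.40 ± 0.07). Talin 1 (TLN1), vinculin (VCL), ILK and focal adhesion kinase (PTK2) were called in none of the 3. DAB2, an endocytic adaptor, was higher after heat shock (0.29 ± 0.07) and lower after both treatments (−0.23 ± 0.07). Its decrease was lost under 10 of 22 alternatives, with −0.18 and adjusted p = 0.128 without the array that stood apart, and its increase under 6 of 22. Without the array that stood apart, 6 of the 34 were higher and 1 lower after both treatments.

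Of 11 membrane proteins that associate with integrins, 2 were higher and 1 lower after both treatments and after heat shock, and 2 were higher and 0 lower after wounding. Shares of all genes, higher and lower, were 8.66% and 14.4%, 4.93% and 7.92%, and 2.27% and 1.31% in the same order. They also stand beside the hemidesmosome and traffic counts below. PLAUR, the urokinase receptor, was higher by 1.37 ± 0.08 after both treatments, 0.71 ± 0.08 after heat shock and 0.52 ± 0.08 after wounding. SDC4, a syndecan that acts with alpha5beta1 on fibronectin, was higher by 1.17 ± 0.08, 0.72 ± 0.08 and 0.59 ± 0.08 in that order, and SDC1 was lower after both treatments (−0.23 ± 0.07) and after heat shock (−0.39 ± 0.07). The SDC1 call after both treatments was lost under 8 of 22 alternatives. Both PLAUR and SDC4 were highest after the double treatment on every array. Of 3 measured hemidesmosome partners, DST was higher after both treatments (0.26 ± 0.07) and after heat shock (0.24 ± 0.07), and CD151, a tetraspanin of alpha3beta1, after both (0.25 ± 0.07). Without the array that stood apart neither was called after both treatments, nor was either without control replicate 1. The DST call after heat shock was lost under 9 of 22 alternatives, among them the replicate block (adjusted p = 0.0533). Of 13 genes of integrin traffic, 0 were higher and 3 lower after both treatments, EEA1 (−0.49 ± 0.10), NUMB (−0.40 ± 0.11) and RAB4A (−0.23 ± 0.06), and RAB4A also after heat shock (−0.23 ± 0.06). NUMB lay at 2.62 to 3.48 over the arrays, well under 4.85, so its difference is approximate. Without the array that stood apart 1 was lower, EEA1, and the EEA1 probe set of largest variance gave −0.24 (adjusted p = 0.234). The RAB4A call was lost under 7 of 22 alternatives after both treatments and 8 of 22 after heat shock. After wounding limma called 0 of the 13, and 0 had an unadjusted p under 0.05.

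**Figure D4:**
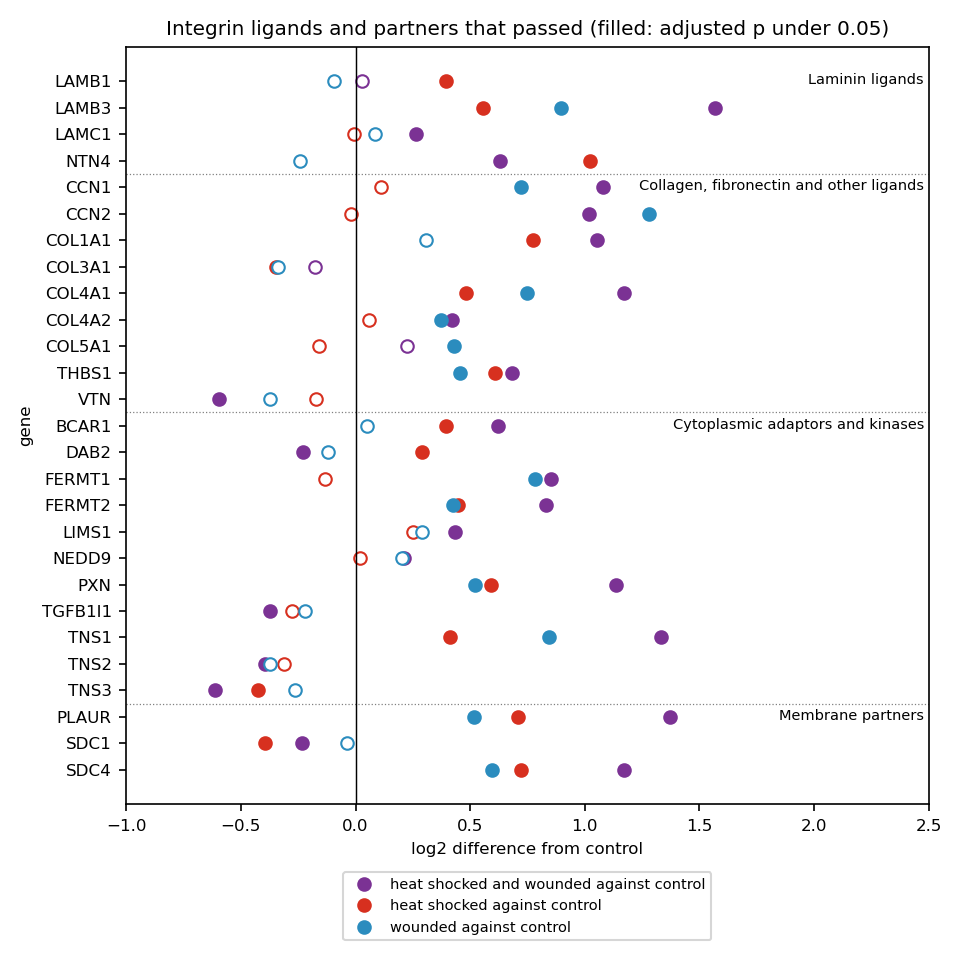
Log2 difference from control for the integrin ligands, adaptors and membrane partners called in at least 1 comparison, grouped by list. Points are limma estimates after both treatments, heat shock alone and wounding alone, and filled points have an adjusted p under 0.05. LAMB3 (1.57), PLAUR (1.37) and TNS1 (1.33) have the 3 highest points, all after both treatments.

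The 16 other integrin subunits, among them those of leukocytes, platelets and muscle, gave 1 call in the 3 comparisons with control. Over all genes 8.66% were higher and 14.4% lower after both treatments, 4.93% and 7.92% after heat shock, and 2.27% and 1.31% after wounding. ITGB3 (beta3) was higher by 0.35 ± 0.10 after both treatments (adjusted p = 0.0258), at levels of 4.03, 4.26 and 4.11 in heat shocked and wounded cells and 3.94, 3.58 and 3.85 in control cells, all under 4.85. The ITGB3 groups did not overlap, though ITGB3 lost its call without the array that stood apart or without control replicate 2. After heat shock limma called 0 of the 16, with 2 higher and 1 lower at an unadjusted p under 0.05. After wounding it called 0 of the 16, with 0 at an unadjusted p under 0.05.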

How the data were processed

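RNA of 12 A549 monolayer samples was measured on PrimeView arrays. The authors deposited 1 table of log2 values per probe set and array, in which RMA and Affymetrix Expression Console are the tools listed by the submitters' processing notes. Their versions and any later filter were not given in the sources. RMA brings arrays to 1 distribution (medians 5.30 to 5.32), so a shift of all RNA would not be seen. Of 49293 probe sets, 1 had a missing value and was left out of the fits; 44987 carried 1 gene symbol in the platform annotation, 1832 several and 2473 none. The probe set with the highest mean stood for each of 18132 genes. limma 3.58.1 in R 4.3.3 fitted 1 mean per group on all 12 arrays (lmFit, contrasts.fit, eBayes), and p-values were adjusted by Benjamini-Hochberg over all genes, or over all probe sets where every probe set is described. The code was tested on simulated data.

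The 10 integrin genes and the lists of ligands and partners were chosen with earlier results of these data known. Named beside all 10 were the 3 genes most correlated with each subunit called against control, called list members, up to 4 per list and comparison by size (TLN1, VCL, ILK, PTK2, FN1, VTN, BCAR1 and DAB2 were picked from the lists after their values were seen), and marker genes of the treatments and cell types. Replicate numbers are given in the labels without saying that they pair arrays. Alternatives covered normalization, probe set choice, dim genes, variance model, blocks and each array left out. Precision is limited by 3 arrays a group.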

Additional observations from a re-analysis of the deposited data

Results flagged for a closer look

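A signal appeared in data that no comparison used. One of the 2 probe sets annotated jointly to ITGB6 and LINC02478 was at 6.14, 5.88 and 6.61 in heat shocked and wounded cells, 5.64, 5.60 and 5.73 in heat shocked cells, 6.56, 6.54 and 6.45 in wounded cells, and 5.64, 5.58 and 5.60 in control cells. It was higher than in control cells by 0.91 ± 0.14 after wounding (1.88-fold, limma adjusted p over all probe sets 0.0025) and by 0.61 ± 0.14 after both treatments (1.52-fold, adjusted p = 0.0072), and differed by 0.05 ± 0.14 after heat shock (adjusted p = 0.894). The second probe set, at 2.65 to 3.58 over the arrays, was not called in any of the 3. Which of the 2 annotated genes gives the signal was not tested.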

How the results depend on the processing

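RMA and 3 arrays a group limit the precision, and no cause of a change was tested. ITGA2 in its 6 comparisons between groups, ITGB8 in heat shocked against control and against wounded, ITGA5 and ITGA6 in heat shocked and wounded against control, and ITGA5 against heat shocked kept their calls under every alternative run, though ITGB8 has no value with dim genes left out and its heat shock difference was 0.46 with the mean of its probe sets. For integrin subunits, leaving dim genes out called 1 in heat shocked against control and 1 in heat shocked against wounded, in place of 2. A block for the code stem in the descriptions (replicates 1 and 2 share 1 stem, meaning not given) called 1 in wounded against control in place of 2, since ITGA5 lost its call. For heat shocked and wounded against wounded, a trended robust variance called 4 and a fit of only the groups compared called 1, in place of 2. With single arrays left out, integrin subunits called ranged from 1 to 2 in wounded against control and from 1 to 3 in heat shocked and wounded against wounded. Within the 2 stems, heat shocked minus control was 0.93 and 0.62 for ITGA2 and 1.36 and 0.84 for ITGB8.

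Whether replicate numbers pair the arrays is not in the labels, and these correlations of departures from group means cannot exclude it. Same-numbered arrays of different groups correlated at −0.19 to 0.23 (median 0.06), and differently numbered ones at −0.19 to 0.24 (median −0.03). Of the 12 arrays, 5 were nearest to their own number. With a replicate block, integrin subunits called were 3 in heat shocked and wounded against wounded, where ITGB8 was added (adjusted p = 0.0479), and as many as reported in the other comparisons.

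The mean of a gene's probe sets, or the set of largest variance, called ITGAV in heat shocked against control (0.31 and 0.51) and in wounded against control (0.48 and 0.62), and ITGA6 in wounded against control (0.29 and 0.38). The mean ended the call of ITGB8 in heat shocked and wounded against heat shocked (−0.27, adjusted p = 0.0990).

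Sign changes among the subunits were of uncalled differences, the largest of them ITGB4 in heat shocked and wounded against control (0.26 as reported). In heat shocked against control, ITGA3 gave 0.017 after renewed quantile normalization, 0.0071 after median centring, 0.039 after loess, 0.074 with the mean, 0.20 with the largest variance and −0.10 to 0.060 with arrays left out; ITGB1 gave 0.0055, 0.055 and 0.030 (loess, mean, largest variance); ITGB4 gave −0.021 to 0.32 with arrays left out. In wounded against control, ITGB1 gave −0.046 with the largest variance and −0.013 to 0.032 with arrays left out. In heat shocked and wounded against control, ITGB1 gave 0.0030 with the mean, ITGB4 −0.052 with the largest variance, and ITGB5 −0.016 after quantile normalization and −0.019 to 0.044 with arrays left out. Against wounded, ITGAV gave 0.0089, 0.047, 0.0095 and 0.094 (quantile, loess, mean, largest variance) and −0.057 to 0.028 with arrays left out. ITGA6 gave −0.12 to 0.022 in heat shocked against wounded with arrays left out. For the departure from additivity, ITGA2 gave −0.20 to 0.0057 and ITGA6 −0.029 to 0.12 with arrays left out, and ITGA6 −0.074 and −0.14 (mean, largest variance).

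Calls over all genes ranged from 1438 to 3020 in heat shocked against control (2330 as reported), 306 to 866 in wounded against control (648) and 3088 to 4628 in heat shocked and wounded against control (4180). Loess moved the share of these that were higher to 49.6% (38.4% as reported) after heat shock and 50.1% (37.6%) after both treatments. After both treatments, calls ranged from 7 to 15 for adaptors and kinases (11 as reported), 0 to 3 for hemidesmosome partners (2), 1 to 4 for integrin traffic (3) and 0 to 2 for other integrins (1). After wounding they ranged from 3 to 6 for collagen and other ligands (6) and 3 to 8 for adaptors (4), and after heat shock from 1 to 4 for collagen and other ligands (4).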
